A study of Mus musculus with 4 samples.

Results

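Aqp1, Aqp4 and Aqp5, the aquaporin genes most often discussed for the alveolus, were followed through 4 single-cell RNA libraries of sorted mouse lung cells. They were chosen by symbol and make up 3 of the 14561 genes listed in any library, and all 3 were listed in each of the 4. Aqp5 was among the most abundant transcripts of alveolar type I (AT1) cells at every age, Aqp1 was abundant at postnatal day 3 (P3) and close to its level in immune-like cells at P60, and Aqp4 was found in under 3% of AT1-like cells at each age. The alveolar type II (AT2) cells of P60 lungs held Aqp5 at a lower level, with Aqp1 and Aqp4 listed at 0.

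Aquaporins are membrane channels through which water crosses a cell along an osmotic gradient. In the lung, AQP5 protein is known from the apical membrane of AT1 cells, the thin, spread-out cells across which gas is exchanged, AQP1 from the endothelium of capillaries and from red blood cells, and AQP4 from the basolateral membrane of airway epithelium. Surfactant is made by AT2 cells, which lie between them. Water follows the salt that epithelial sodium channels and the sodium pump move out of the air space, so these transporters were described beside the channels.

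The mice had a mixed FVB/C57BL6 background, carried Sftpc-CreER, Rosa26-Zsgreen and Hopx-RFP, and had all received tamoxifen. AT2 cells came from P60 lungs and were sorted as GFP+CD45- cells, in which the green reporter marks cells with a history of Cre activity from the Sftpc allele. AT1 cells came from lungs at P3, P15 and P60 and were sorted as RFP+Pdpn+GFP-CD45- cells, so Hopx and Pdpn chose them and are no finding between the sorts. Elastase and type I collagenase were added to neutral protease and DNase I for the AT1 lungs but not for the AT2 lungs, so digestion and cell type cannot be told apart. Each group was 1 library, and the number of animals in it was not stated. There was therefore no replicate and no p-value, and every interval below is a 95% interval that covers counting error only.

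The libraries held 3149, 2940 and 1337 cells at P3, P15 and P60 for AT1 and 2093 cells for AT2, with 7276458 to 26536894 unique molecular identifiers (UMIs, each 1 tagged transcript) per library and medians of 4864 to 7477 UMIs per cell. Any pair of libraries shared 3 to 15 cell barcodes, 0.143 to 0.526% of the cells of either library. Clusters made without any aquaporin gene were named from marker lists, and 2838, 2657 and 1152 cells passed as AT1-like at the 3 ages, and 1804 cells of the AT2 library passed as AT2-like. All 20 AT1 markers had UMIs in each AT1-like class, with a summed level of 39150 counts per 1000000 UMIs (CPM) at P3, 65479 CPM at P15 and 56343 CPM at P60, against 2873 CPM in the AT2-like class, where all 15 AT2 markers had UMIs and summed to 253685 CPM. An unnamed cluster of 217 AT2-library cells led by Hopx, an AT1 marker, and an unnamed cluster of 41 shallow cells were not counted as AT2-like, and 40 cells at P3 led by S100a8 with immune and platelet markers were not counted as AT1-like. Levels below are CPM of the UMIs summed over a class. They are not divided by transcript length, since a UMI marks 1 transcript end whatever its length.

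The promoters of Aqp5 and Aqp1, the 2 members measured well above the counting limit, are shown because their levels went opposite ways between P3 and P15. Each stretch runs from 250 bases before the transcript start to 50 bases after it, 5′ to 3′ on the plus strand, from RefSeq on GRCm38.p6, at chr15:99590778-99591077 for Aqp5 and chr6:55336049-55336348 for Aqp1, with matches of the GC box (GGGCGG, searched on both strands) in capitals.
Aqp5: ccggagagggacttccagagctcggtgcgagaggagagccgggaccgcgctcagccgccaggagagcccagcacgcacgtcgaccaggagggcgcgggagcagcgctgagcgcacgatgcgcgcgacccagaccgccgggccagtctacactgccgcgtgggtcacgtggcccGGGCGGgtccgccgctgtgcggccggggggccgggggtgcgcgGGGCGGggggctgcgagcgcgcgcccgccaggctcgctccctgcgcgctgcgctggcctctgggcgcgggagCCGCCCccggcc
Aqp1: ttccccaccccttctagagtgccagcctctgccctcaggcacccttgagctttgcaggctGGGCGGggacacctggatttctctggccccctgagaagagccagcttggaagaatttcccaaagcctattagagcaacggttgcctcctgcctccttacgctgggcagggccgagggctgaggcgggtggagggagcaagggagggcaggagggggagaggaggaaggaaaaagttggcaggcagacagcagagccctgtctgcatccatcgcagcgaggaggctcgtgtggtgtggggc
The Aqp5 stretch held 46 CG dinucleotides and was 79.7% G and C, while the Aqp1 stretch held 8 and was 62.7% G and C, beside medians of 7 and 52.7% over 32851 promoters of the same length. The GC box matched 3 times for Aqp5 and 1 time for Aqp1, and 35.7% of all these promoters hold it. Neither stretch held the TATA box (TATAAA), present in 13.6% of promoters, or the CCAAT box (CCAAT), present in 37.4%, on either strand. Such a match is a description of the letters and not a shown binding site. The RefSeq start of Aqp1 used here lies before the GENCODE start given next, and that of Aqp5 after it.

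In the GENCODE annotation of mm10, Aqp5 is a protein-coding gene on the plus strand of chromosome 15 from 99590782 to 99594829, with up to 5 exons in a transcript, and Aqp1 one on the plus strand of chromosome 6 from 55336432 to 55348555, with 4 exons. No annotated gene overlaps either. Aqp5 lies 6234 bases after the end of Aqp2, and Aqp6 follows it.

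Aqp5, the apical water channel of AT1 cells, had 1812 CPM at P3 (interval 1794 to 1829), 3596 CPM at P15 (3565 to 3628) and 3019 CPM at P60 (2976 to 3062) in the AT1-like classes. In order of level it was gene 92 of 13992 listed at P3, gene 17 of 12851 at P15 and gene 16 of 11561 at P60. The 3 intervals did not overlap, and the highest level was at P15. Aqp5 was 1.98-fold higher at P15 than at P3 (1.96 to 2.01), 1.19-fold lower at P60 than at P15 (1.17 to 1.21) and 1.67-fold higher at P60 than at P3 (1.64 to 1.7).

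Those folds were below 2, the size used here to call a difference among genes with at least 50 CPM and 30 UMIs in the higher library. Among 3287 such genes at P15 against P3, 9.25% were called higher. At P60 against P15, 3.93% of 3432 genes were called higher and 4.43% lower, and at P60 against P3, 13.3% of 3464 genes were called higher. The median gene was at log2 0.13, -0.04 and 0.12 in these comparisons. Aqp5 at P15 against P3 stands at the edge of the call, with 2.03 over all cells of each library, 2.04 when Malat1 is left out of the total and 1.72 when genes of ribosomal proteins, haemoglobin and the mitochondrion are left out. With other ways of scaling, the median gene at P60 against P3 moved to between log2 -0.13 and 0.31, and Aqp5 to between 1.4 and 1.9. Comparisons that share a library are not independent of each other.

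**Figure D1:**
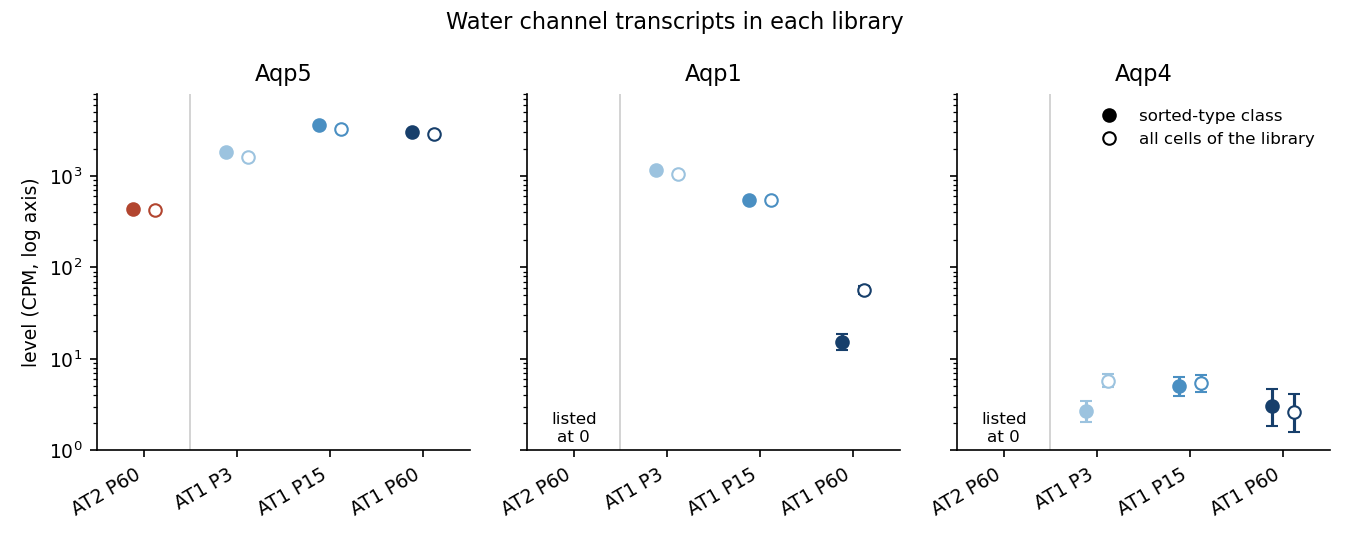
Level of each gene in CPM on a log axis for the AT2 library and the AT1 libraries of 3 ages, in the sorted-type class (filled) and in all cells of the library (open), with exact Poisson 95% intervals where they exceed the symbol. Aqp5 is at 1621 CPM or above in the AT1 libraries, Aqp1 is at 15.3 CPM in the AT1-like class at P60 and at 56.9 CPM over all cells, and Aqp4 lies between 2.61 and 5.77 CPM.

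Nearly every AT1-like cell held an Aqp5 UMI, with 99.7% of cells at P3, 99.4% at P15 and 98.5% at P60. In immune-like cells, which should lack the gene, the share was 44.2% at P15 and 64.3% at P60, at median depths of 3114 and 2252 UMIs against 4935 and 5348 in the AT1-like classes. After each cell was thinned at random to 2000 UMIs, the AT1-like shares were 93.9, 98.5 and 98.8% at P3, P15 and P60, with 0, 210 and 120 shallower cells left out. At this depth the median cell held 3 Aqp5 UMIs at P3, 6 at P15 and 5 at P60, and the middle 90% of P15 cells held 2 to 14. The variance was 1.7, 2.37 and 1.78 times the mean at the 3 ages, where counting alone would give 1.

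The level of Aqp5 also differed between clusters of AT1-like cells, which were made without it. The 6 clusters at P3 ranged from 1717 to 1932 CPM. The 6 clusters at P15 ranged from 2723 CPM in one led by Ddit4, a stress-response gene, to 4624 CPM (4507 to 4744) in one of 252 cells led by Isg15, an interferon-induced gene. The 5 clusters at P60 ranged from 1757 to 3339 CPM. The lowest was led by Lars2 (108 cells, median 2126 UMIs) and the highest by Triap1 (370 cells, median 7948 UMIs). A second cluster led by Lars2, of 393 cells at a median of 4112 UMIs, had 2766 CPM. These are values of clusters within 1 library each and were not tested.

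In the AT2-like class Aqp5 had 435 CPM (421 to 449), against 3019 CPM in the AT1-like class of the same age. It was 6.94-fold lower in the AT2-like class (6.71 to 7.19), a direction that 39.8% of the 3442 genes measured shared at 2-fold or more, with a median of log2 -0.72 over all of them. Scaled by the median of ratios, which brings that median to -0.03, the ratio was 0.232 in place of 0.144. In order of level Aqp5 was gene 256 of 12509 in the AT2-like class. A UMI was found in 80.5% of AT2-like cells, against 98.5% of AT1-like cells, and in 56.4% against 98.8% at 2000 UMIs, with a median of 1 UMI against 5.

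As a check, a cluster of 22 immune-like cells found in the AT2 library at the coarser clustering had 63 CPM of Aqp5, against 435 CPM in the AT2-like class. With so few cells, at a median depth of 2364 UMIs, the 63 CPM rests on few UMIs. At the finer clustering a mixed cluster of 33 cells, with leading genes of immune cells (S100a8, Tyrobp) and of stroma (Mgp, Inmt), had 180 CPM (113 to 273) and a UMI in 21.2% of cells (8.98 to 38.9), below the 80.5% of AT2-like cells, at a median depth of 2916 UMIs against 4849. The 4 AT2-like clusters ranged from 358 to 522 CPM, and the unnamed cluster led by Hopx had 397 CPM (363 to 434), with a UMI in 83.4% of its cells. At the finer clustering a smaller unnamed cluster of 13 cells, led by Hopx and the AT1 marker Pdpn, had 1088 CPM of Aqp5.

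**Figure D2:**
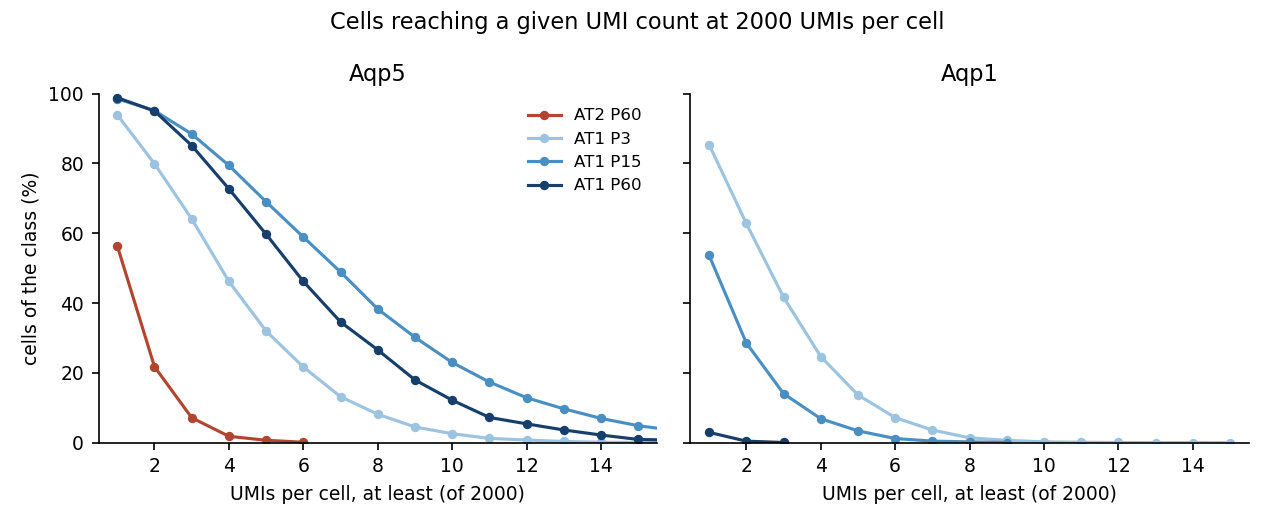
Share of cells in percent (vertical) that hold at least the number of UMIs on the horizontal axis after each cell was thinned to 2000 UMIs, with 1 line per sorted-type class. At least 1 Aqp5 UMI was held by 56.4% of AT2-like cells and by 93.9 to 98.8% of AT1-like cells, and at least 1 Aqp1 UMI by 85.4, 53.7 and 3% of the AT1-like class over the 3 ages.

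Counts of 2 genes in the same cells show whether Aqp5 follows Ager, the receptor gene that is the most used AT1 marker. The AT2-like class held 0.279 Aqp5 UMIs per Ager UMI (0.269 to 0.289), against 0.136 in the AT1-like class at P60 (0.134 to 0.138). The ratio of Aqp5 to Ager was thus higher in the AT2-like class. Other cells of the AT2 library also had a high ratio of Aqp5 to Ager, at 0.629 in the mixed cluster of 33 cells (0.351 to 1.1, from 22 and 35 UMIs) and 0.214 in the unnamed cluster led by Hopx (0.194 to 0.236). The part of free RNA in the AT2-like ratio was not tested.

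Cells of other types that passed the AT1 sort allowed the comparison within a library. AT2-like cells held 0.101 Aqp5 UMIs per Ager UMI at P3 (0.0941 to 0.109, 63 cells), 0.146 at P15 (0.125 to 0.169, 25 cells) and 0.214 at P60 (0.166 to 0.272, 11 cells), against 0.108, 0.103 and 0.136 in the AT1-like cells of those libraries. The intervals of the 2 classes overlapped at P3 and did not at P15 and P60. The P3 cluster named AT2-like (65 cells, median 16685 UMIs) had 46.5% of the library's median level of AT1 markers, with all 20 detected. The part of AT1 transcripts in its ratio was not tested. The 24 club-like cells at P3, secretory cells of the airway, held 0.17 (0.146 to 0.197), above the AT1-like ratio. Endothelial-like cells held 0.0869, 0.0861 and 0.142 at the 3 ages, and immune-like cells 0.104 at P15 and 0.119 at P60, all with intervals that reached that of the AT1-like class, at P3 only at its edge (0.0701 to 0.107 against 0.107 to 0.109). Fibroblast-like cells at P15 held 0.0894 (0.0693 to 0.114), and the 12 at P60 held 0.0312 (0.01 to 0.0745, from 5 Aqp5 UMIs), below the AT1-like class.

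**Figure D3:**
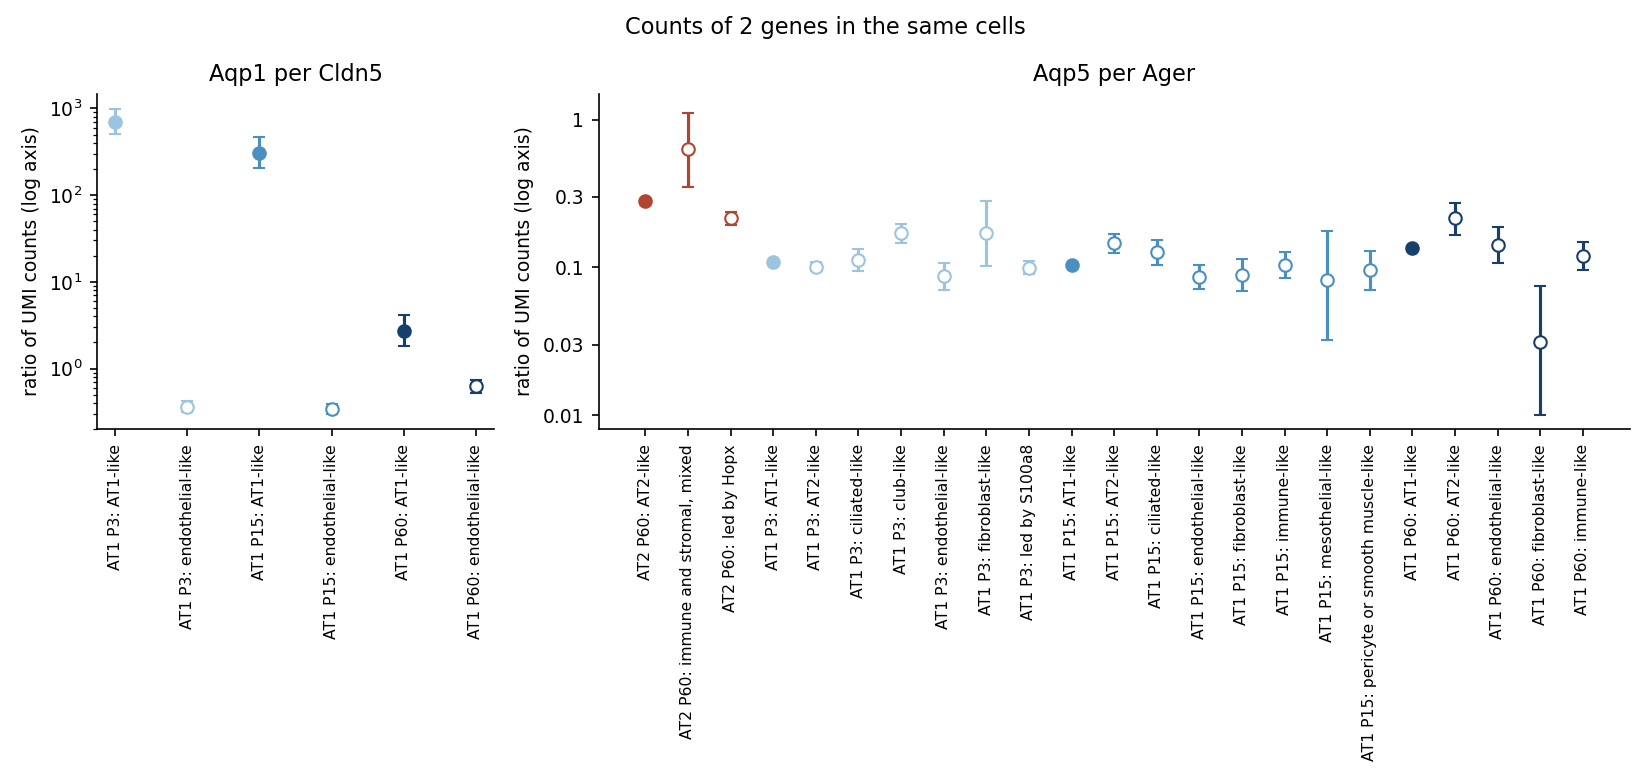
Ratio of UMI counts of 2 genes summed over the same cells, on log axes with exact conditional 95% intervals, for Aqp1 per Cldn5 (left) and Aqp5 per Ager (right), with sorted-type classes filled and other cells open. Aqp1 per Cldn5 is 701, 304 and 2.74 in the AT1-like class over the 3 ages and below 1 in endothelial-like cells, and Aqp5 per Ager is 0.279 in the AT2-like class and 0.136 in the AT1-like class at P60, with the other cells between 0.0312 and 0.629.

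Aqp1, best known as the water channel of capillary endothelium and red cells, had 1177 CPM at P3 (1162 to 1191), 551 CPM at P15 (538 to 563) and 15.3 CPM at P60 (12.4 to 18.7, from 96 UMIs) in the AT1-like classes. It was gene 133 in order of level at P3, gene 281 at P15 and gene 6700 at P60. The 3 intervals lay far apart, and the level was lower at each later age. Aqp1 was 2.14-fold lower at P15 than at P3 (2.08 to 2.19), a direction that 6.66% of measured genes shared at 2-fold or more.

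The step between the 2 later ages was larger. Aqp1 was 36-fold lower at P60 than at P15 (29.4 to 44.5), where 4.43% of measured genes were called lower, and 76.9-fold lower at P60 than at P3 (62.9 to 94.9), where 9.73% were. Over all cells of each library, endothelial cells included, the ratios were 0.105 and 0.0539 in place of 0.0278 and 0.013, since the P60 library as a whole held 56.9 CPM. The size of the fold at P60 thus depends on whether the AT1-like class or all cells are counted. In AT1-like cells with no marker UMI of endothelial, stromal, immune or erythroid cells, the P60 level was 7.58 CPM. The ratios there were 0.0146 and 0.00634. Only 103 cells remained at P60, with few Aqp1 UMIs and no interval computed, so this lower level could not be told from the 15.3 CPM of the class. Over all cells the P15 ratio to P3 was 0.513, which no longer reaches 2-fold.

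A UMI of Aqp1 was found in 97.8% of AT1-like cells at P3, 71.4% at P15 and 6.68% at P60, and at 2000 UMIs per cell in 85.4, 53.7 and 3%. Immune-like cells had a share of 15.4% and 43.3 CPM at P15 (20.8 to 79.7), below the AT1-like 551 CPM. At P60 they had a share of 2.38% and 13 CPM (1.58 to 47.1), an interval that holds the 15.3 CPM of the AT1-like class, so at this depth Aqp1 in AT1-like cells at P60 could not be told from the background of the library. The 6 AT1-like clusters ranged from 1054 to 1340 CPM at P3 and the 6 at P15 from 495 to 610 CPM, so no cluster carried the level alone.

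Aqp1 and Aqp5 were found in the same cells at the younger ages. At 2000 UMIs both were detected in 80.5% of AT1-like cells at P3, 53.1% at P15 and 3% at P60. Aqp1 alone was detected in 85.4, 53.7 and 3% of cells and Aqp5 in 93.9, 98.5 and 98.8%. With Aqp5 in nearly every cell, the shares with both add little to that of Aqp1. At P15 the mean was 6.93 Aqp5 UMIs in cells with Aqp1 and 6.93 in cells without it, and at P3 it was 3.72 and 3.51. Across cells of 1 library, which share 1 preparation, Pearson's r of the 2 genes was 0.067 at P3 and 0.013 at P15.

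Endothelial and red cells carry Aqp1 at a high level, so their markers were set beside it. Endothelial-like cells in the AT1 libraries had 1081 CPM of Aqp1 at P3 (956 to 1217, 26 cells), 1508 CPM at P15 (1340 to 1691, 40 cells) and 2315 CPM at P60 (2036 to 2622, 36 cells). The AT1-like level at P3 was thus as high as that of endothelial-like cells in the same library. The 16 mesothelial-like cells at P15, which line the lung surface, had 1826 CPM (1577 to 2102), with no UMI of Cldn5, Cdh5 or Pecam1. Fibroblast-like cells had 42, 158 and 185 CPM at the 3 ages, from 5, 47 and 8 UMIs in 14, 58 and 12 cells. The values at P3 and P60 are thus too uncertain to order by age. The 33 cells with pericyte or smooth muscle markers had 82.3 CPM at P15, from 12 UMIs.

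Of the 16 endothelial markers, Cldn5, Cdh5 and Pecam1 were each at or below 8.13 CPM in AT1-like cells at all 3 ages. Other markers of the list were more common. UMIs of 1 or 2 of the 16 were held by 2000 of 2838 AT1-like cells at P3, 1859 of 2657 at P15 and 921 of 1152 at P60. Cldn5, a junction protein of endothelium, had 1.68, 1.81 and 5.58 CPM in the AT1-like class over the 3 ages, against 2965, 4415 and 3725 CPM in endothelial-like cells. All 16 endothelial markers had UMIs in each AT1-like class and summed to 169, 287 and 349 CPM at P3, P15 and P60, an order opposite to that of Aqp1, against 1000, 2854 and 2771 CPM in the cells outside the class. Per Cldn5 UMI, AT1-like cells held 701 Aqp1 UMIs at P3 (511 to 991) and 304 at P15 (206 to 470), against 0.364 and 0.342 in endothelial-like cells.

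At P60 the ratios lay closer together. AT1-like cells held 2.74 Aqp1 UMIs per Cldn5 UMI (1.84 to 4.16) and 1.88 per Pecam1 UMI (1.33 to 2.7), against 0.622 (0.528 to 0.73) and 2.07 (1.66 to 2.59) in endothelial-like cells. The Pecam1 ratio at P60 was thus not distinguishable from that of endothelial-like cells, and the Cldn5 ratio was above it, as was the Cdh5 ratio at 4.8 (2.94 to 8.21) against 1.64 (1.34 to 2.02). In AT1-like cells with no endothelial marker UMI at all, Aqp1 had 1158 CPM at P3 (838 cells), 515 CPM at P15 (798 cells) and 12.6 CPM at P60 (6.04 to 23.1, 10 UMIs in 231 cells), close to the whole classes. These cells were shallower, at medians of 6874, 3618 and 2737 UMIs, against 7453, 5524 and 5834 UMIs in AT1-like cells with such a marker. Of 7 mesothelial markers, 3, 6 and 3 were listed at P3, P15 and P60. Those listed summed to 1.9, 11.2 and 50.1 CPM in the AT1-like class, against 6.16, 553 and 110 CPM in the cells outside the class. The number listed differed, so these sums are no comparison between ages.

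Erythroid markers were listed at P3 only, 3 of 6, and summed to 5.79 CPM in AT1-like cells. Aqp1 had 1261 CPM in the 93 AT1-like cells with such a marker, among them haemoglobin genes Hba-a1 and Hbb-bs, and 1173 CPM in the 2745 cells without one. The level of Aqp1 at P3 was therefore as large without the cells that carried red cell markers.

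**Figure D4:**
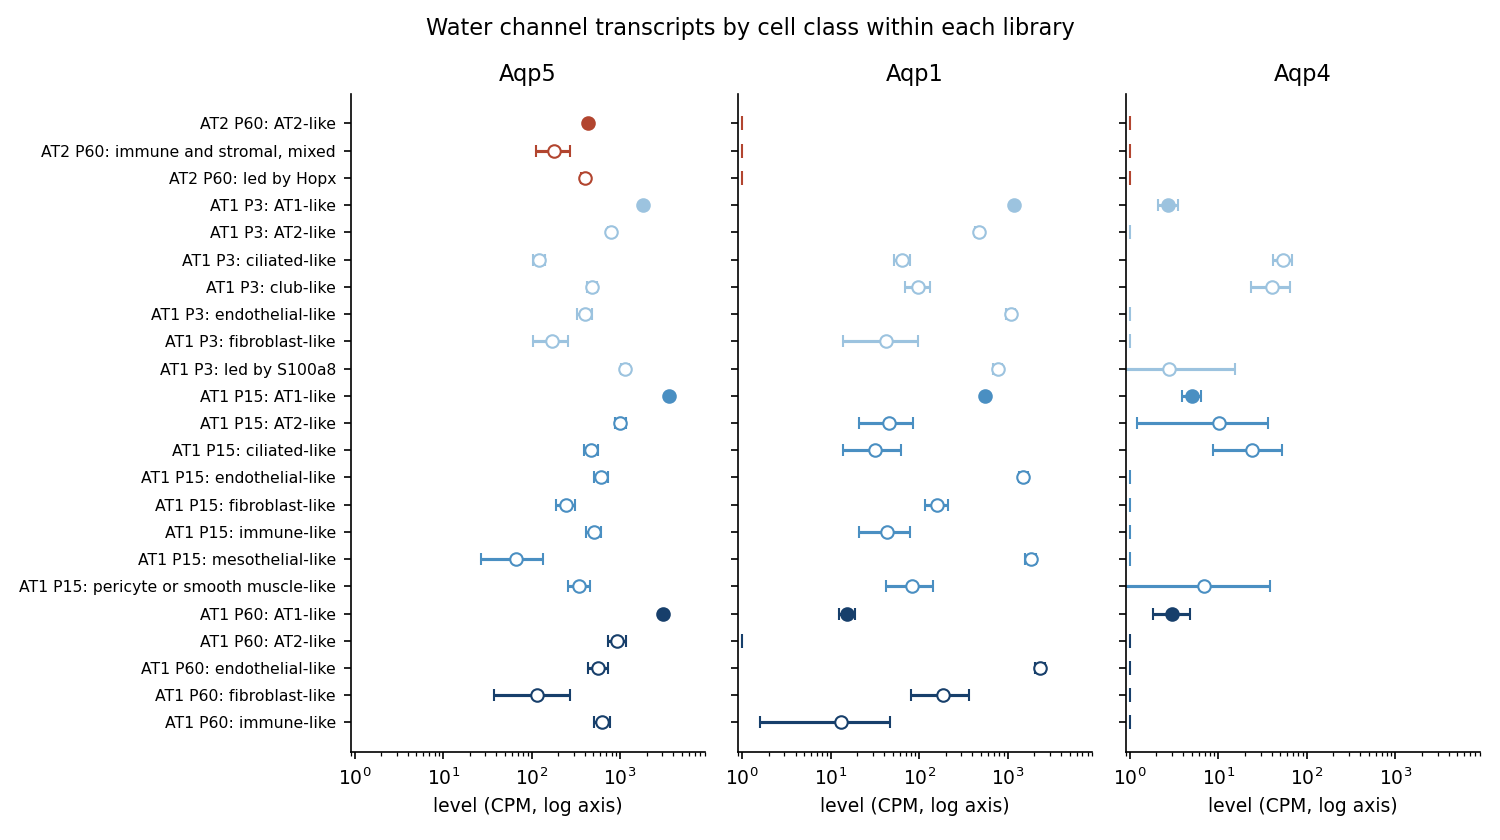
Level of each gene in CPM on a log axis for the cell classes of each library, sorted-type class filled and others open, with exact Poisson 95% intervals, and a vertical bar at the left edge where no UMI was counted. Aqp1 is at 1081 to 2315 CPM in endothelial-like cells at all 3 ages and at 1826 CPM in mesothelial-like cells. Aqp4 is highest in the ciliated-like and club-like cells of P3.

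Aqp4, the basolateral water channel of airway epithelium, had 2.69 CPM at P3 (2.06 to 3.46, 61 UMIs), 5 CPM at P15 (3.89 to 6.33, 69 UMIs) and 3.03 CPM at P60 (1.82 to 4.73, 19 UMIs) in the AT1-like classes. It was found in 1.87, 2.45 and 1.48% of cells, and in 0.775, 0.858 and 0.484% at 2000 UMIs. Those levels lie below the 50 CPM needed for a call. The ratio of P15 to P3 was 1.86 (1.3 to 2.67), of P60 to P15 0.605 (0.344 to 1.02) and of P60 to P3 1.12 (0.634 to 1.91), and over all cells of each library the first was 0.935.

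Airway cells in the same libraries held more Aqp4 than AT1-like cells. The 110 ciliated-like cells at P3 had 53.3 CPM (41.6 to 67.2) and a UMI in 40.9% of cells, and the 24 club-like cells 40.4 CPM (23.5 to 64.6). The 35 ciliated-like cells at P15, classed by their own markers, had 23.8 CPM (8.74 to 51.8), but no P15 cluster was named ciliated-like. The P15 cluster with airway markers was led by Scgb1a1 and named AT2 and club-like. It had 26.6 CPM of Aqp4 (14.2 to 45.5, 13 UMIs in 63 cells), and which cell type in it carried Aqp4 was not settled. No Aqp4 UMI was counted in the 63 AT2-like cells at P3, which allows a share of up to 4.76%, in the 52 immune-like cells at P15, up to 5.77%, or in the 42 at P60, up to 7.14%. With so few cells of these types, and at other depths, these limits could not show whether their share lay below that of AT1-like cells. Within the AT1-like cells of P15, the cluster led by Isg15 had 14.2 CPM (8.41 to 22.4, 18 UMIs), against 2.97 to 4.78 CPM in the other 5 clusters.

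In the AT2 library Aqp1 and Aqp4 were listed at 0 in every cell. The AT2 table lists all 11561 genes of the P60 AT1 table, and 1068 of its genes are at 0 in every cell while every other gene is found in at least 5 cells. A 0 there may have been filled in for a gene below the filter, and no fold was given.

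Few UMIs of other aquaporins were counted. Aqp3, a channel for water and glycerol, was listed at P3 only, with 0.265 CPM in AT1-like cells (6 UMIs) and 25.6 CPM in the 63 AT2-like cells (16.9 to 37.3), of which 34.9% held a UMI. Aqp11, which resides inside the cell, had 0.53 CPM at P3 and 0.653 CPM at P15 in AT1-like cells and 1.9 CPM in the AT2-like class. Aqp2, the vasopressin-regulated channel of the kidney and the upstream neighbour of Aqp5, was listed in the AT2 library only, with 21 UMIs in 21 AT2-like cells, and 19 of them also held Aqp5 (90.5%, against 80.4% of the cells without Aqp2). Mip, Aqp6, Aqp7, Aqp8, Aqp9 and Aqp12 were listed in no library.

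Genes with the most similar pattern were taken by distance of log2(CPM + 5) over the 4 sorted classes and by Pearson's r of log2(CPM + 10) over 33 clusters of at least 30 cells, which share libraries and depth. For Aqp1 the closest gene by both measures was Msln, a surface protein of mesothelium, with 609, 371 and 7.33 CPM in the AT1-like class over the 3 ages, listed at 0 in the AT2 library, and r = 0.93. Upk3b, a mesothelial marker, was at 0.943 CPM at P15 and 1.91 CPM at P60 in AT1-like cells, against 2668 CPM in mesothelial-like cells at P15, where Msln had 3784 CPM. The next closest genes to Aqp1 were Id1, Itm2a, Fras1 and Id3 by distance and Gnb4, Mmp14, Lamc1 and Wfdc1 by r, whose r was 0.91 to 0.93. Both measures used the AT2 library, where the 0 of Aqp1 may have been filled in. Msln, Fras1 and Wfdc1 were also at 0 in the AT2-like class.

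For Aqp5 the closest by distance were Plagl1, Tor3a, Creb3, Tmem65 and Cxcl16, and by r Tmem37, Icam1, Ager, Cxcl16 and Tmod1, at 0.95 to 0.96. Cxcl16, a chemokine, was in both lists, with 197, 427 and 324 CPM in the AT1-like class over the 3 ages and 49.3 CPM in the AT2-like class. For Aqp4 the distance named Usf2, Cdk16, Lzts2, Ccs and Uqcrc1, and r named 9530053A07Rik, Tnn, Capsl, Porcn and 1700028P14Rik, and at a few CPM and with a possible filled 0 in AT2 these likenesses rest on little signal.

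Ion transport genes gave the setting in which the channels work. Of a list of 40 genes, 20 were measured in each comparison. At P15 against P3, 4 were called higher (20%, beside 9.25% of all measured genes) and 0 lower, with a median of log2 0.46 beside 0.13. At P60 against P15, 0 were higher and 3 lower (15%, beside 4.43%), with a median of -0.23 beside -0.04. At P60 against P3, 2 were higher and 1 lower, with a median of 0.48 beside 0.12. The shares at P60 against P3, 10% higher and 5% lower, lay below the 13.3 and 9.73% of all measured genes.

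The sodium channel brings sodium into the cell from the air space. Its alpha subunit gene Scnn1a had 313, 748 and 619 CPM in the AT1-like class over the 3 ages, 2.39-fold higher at P15 than at P3 (2.32 to 2.46) and 1.98-fold higher at P60 than at P3. Scnn1b had 267, 338 and 435 CPM and Scnn1g 479, 771 and 563 CPM, and neither reached 2-fold between ages. The order of Scnn1a and Scnn1g over the 3 ages, highest at P15, was that of Aqp5.

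Regulators of the channel included the gene with the largest ratio of P15 to P3 among the 20 measured genes of the list. Sgk1, a kinase that keeps sodium channels at the surface, had 72.1, 810 and 231 CPM at P3, P15 and P60, 11.2-fold higher at P15 than at P3 (10.7 to 11.8) and 3.51-fold lower at P60 than at P15 (3.32 to 3.71). Sgk1 is also among the leading genes of a P15 cluster led by Dusp6 and the immediate early gene Fosb, and the part of that cluster in the difference was not tested. Nedd4l, a ubiquitin ligase that removes the channel from the surface, had 51.9, 101 and 83.2 CPM, 1.94-fold higher at P15 than at P3. Nr3c1, the glucocorticoid receptor gene, had 105 CPM at P15 and 168 CPM at P60, and St14, a membrane protease, 70.3 and 45.4 CPM, both under 2-fold apart.

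The sodium pump moves sodium on into the tissue. Its beta subunit gene Atp1b1 had 344, 885 and 224 CPM at P3, P15 and P60, 2.58-fold higher at P15 than at P3 and 3.95-fold lower at P60 than at P15 (3.74 to 4.17). Fxyd3, a small modulator of the pump, had 170, 208 and 81.3 CPM, 2.55-fold lower at P60 than at P15 and 2.09-fold lower at P60 than at P3. Clic5, a chloride intracellular channel family gene, had 805, 1354 and 1665 CPM, 2.07-fold higher at P60 than at P3, and 1.74-fold, under the call, when genes of ribosomal proteins, haemoglobin and the mitochondrion are left out of the total.

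**Figure D5:**
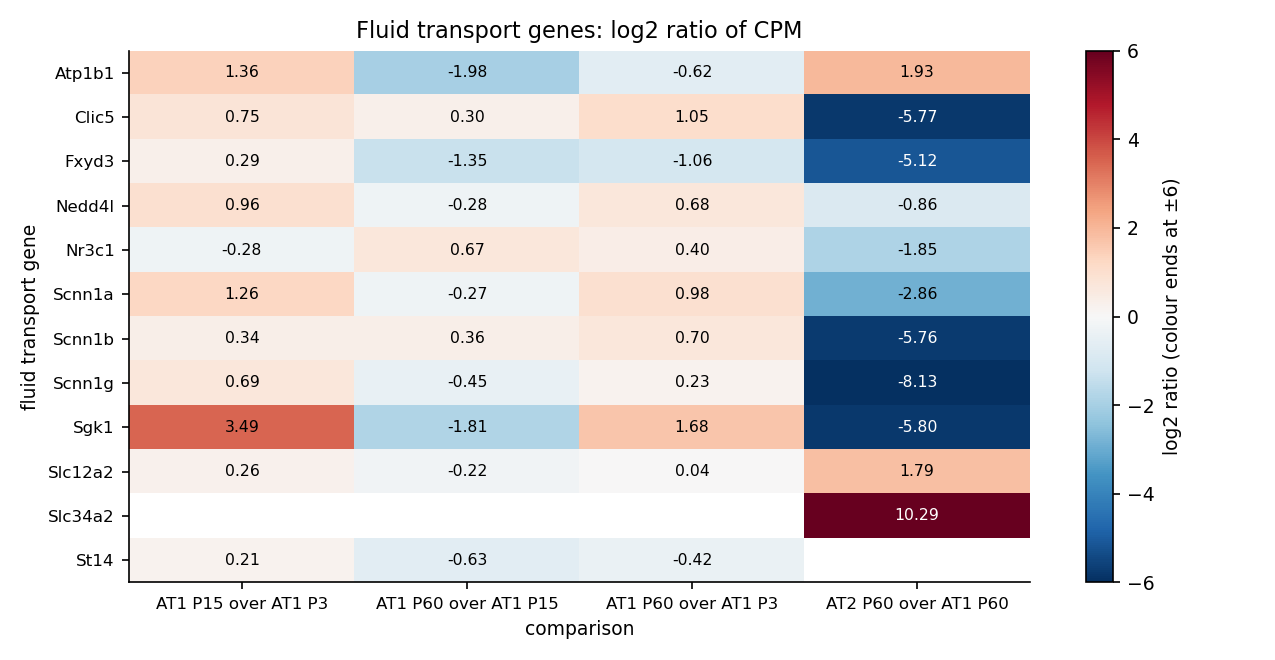
The log2 ratio of CPM of the fluid transport genes named in the text (rows) in the 4 comparisons (columns), with the value printed in each cell, red for higher and blue for lower in the group named first, and blank where a gene was not measured. Sgk1 is at 3.49 for P15 over P3, and the AT2-like class lies below the AT1-like class for all 3 sodium channel subunit genes.

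Between the cell types the list divided. In the AT2-like class 4 genes were called higher (20%, beside 13.5% of all measured genes) and 12 lower (60%, beside 39.8%) than in the AT1-like class at P60, with a median of log2 -2.24 beside -0.72. These counts include Slc34a2, Scnn1g and Clic5, markers used to name the classes, so their direction is no finding. Genes not listed in the P60 AT1 library, such as Slc26a9 at 103 CPM in the AT2-like class, could not be counted. Among the higher genes were Slc34a2, a phosphate cotransporter and one of the markers that named AT2-like cells, at 4577 CPM against 3.67 CPM, Atp1b1 at 854 against 224 CPM, and Slc12a2, a sodium, potassium and chloride importer, at 246 against 71.4 CPM. Scnn1a had 85 CPM against 619 CPM, 7.28-fold lower (6.74 to 7.88), a fold close to the 6.94 of Aqp5. Scnn1b had 8.04 CPM against 435 CPM, and Scnn1g, which like Clic5 was among the AT1 markers, 2.01 CPM against 563 CPM. Sgk1 had 4.13 CPM against 231 CPM and Clic5 30.5 against 1665 CPM.

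Genes for partners of water channels showed no single direction. Dag1, which encodes dystroglycan, had 864, 1133 and 865 CPM in the AT1-like class over the 3 ages. Sntb1, a syntrophin gene, and Dmd, the dystrophin gene, were at or below 16.8 CPM at each age. Ezr, which encodes ezrin, a linker of membrane proteins to actin, had 609, 309 and 172 CPM, 3.53-fold lower at P60 than at P3 (3.32 to 3.76). Trpv4, a calcium channel that responds to osmotic swelling, had 6 UMIs at P3 and 5 at P15 in AT1-like cells.

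Markers of other cells also differed with age in the AT1-like classes. Scgb1a1, a secreted product of club cells, had 1025, 274 and 1069 CPM at P3, P15 and P60, and Sftpc, the surfactant gene of AT2 cells, 309, 125 and 221 CPM. The 9 to 10 immune markers listed summed to 67.9, 190 and 234 CPM. The fibroblast markers, of which 9, 10 and 7 were listed, summed to 7.42, 30.1 and 24.7 CPM. Sums over different numbers of genes are no close comparison between ages. The part of these markers in the aquaporin levels was not tested.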

How the data were processed

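Single-cell 10x 3' libraries of 4 groups, 1 library each, were analysed. The deposited values are natural logs: the authors divided each UMI count by its cell's total, multiplied by 10000, added 1 and took the log, which was read from the numbers. Cell Ranger 1.3.1, Seurat 2.0.0 and the builds mm10 and hg19 are named per the submitters' processing notes, without a role for hg19. Undoing the log and dividing by what 1 UMI is worth in a cell gave whole numbers, within 0.05, for 100% of values above 0. The tables had been filtered on genes before deposit, so a gene absent from a table was called not listed.

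Each library was clustered alone (Scanpy 1.11.5, igraph 0.11.9, 2000 variable genes without aquaporins, 20 components, 15 neighbours, Leiden resolution 0.5). Clusters were named from marker lists. A cluster was AT1-like or AT2-like with 10 of that type's markers in 25% of its cells, at least 50% of the library's median level of them, and no more leading markers of another type. Cells in such clusters with 3 or more markers of another type (4 mesothelial, 6 club, 7 ciliated) were set aside (14, 14 and 79 cells over the AT1 ages, and 31 in AT2), and no doublet caller was run. Cells of clusters not named for the sorted type were classed by the list of which they held the largest share. At P60 the cluster named AT2-like held 53 cells, of which 42 cells were immune-like by their own markers. The naming thresholds were set after the data were seen, and the genes and lists were chosen with earlier results of these data known.

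UMIs were summed per class as CPM. Levels have exact Poisson intervals, ratios exact conditional intervals and shares Clopper-Pearson intervals, and a share of 0 the limit of 3 counts. Named genes were the 3 members, listed aquaporins, per comparison the 6 genes of the fluid transport list with the largest ratio at 20 CPM, the 5 genes most like each member by 2 measures, and fixed markers and partners. A few genes that this rule takes are not reported here. The ratio code was tested on simulated counts. Figures were made with matplotlib 3.10.9.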

Additional observations from a re-analysis of the deposited data

How the results depend on the processing

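No paired analysis was possible because each group is 1 library. No called ratio of Aqp1 or Aqp5 changed direction under any alternative, and no called fluid transport gene did under the 3 alternatives run for that list. Over all cells of each library, the ratio of P15 to P3 was 0.513 for Aqp1, 0.935 for Aqp4 and 2.03 for Aqp5, that of P60 to P15 0.105 for Aqp1 and 0.884 for Aqp5, and that of P60 to P3 0.0539, 0.453 and 1.79 for Aqp1, Aqp4 and Aqp5. With genes of ribosomal proteins, haemoglobin and the mitochondrion left out of the total, P15 to P3 was 0.404 for Aqp1 and 1.72 for Aqp5, and Aqp5 was 0.816 at P60 to P15, 1.4 at P60 to P3 and 0.168 in AT2-like to AT1-like cells. Without Malat1 in the total Aqp5 was 2.04, 0.933, 1.9 and 0.126 in the same order. As a mean over cells P15 to P3 was 0.451 for Aqp1, and Aqp5 was 1.89, 0.814, 1.53 and 0.152. With median-of-ratios factors P15 to P3 was 0.452 for Aqp1, and Aqp5 was 1.92, 0.765, 1.47 and 0.232. Keeping only cells with no marker UMI of endothelial, stromal, immune or erythroid cells left 18, 13 and 8.94% of the AT1-like class over the 3 ages and 59.8% of the AT2-like class. There Aqp1 was 0.434, 0.0146 and 0.00634 at P15 to P3, P60 to P15 and P60 to P3, Aqp4 1.03 at P15 to P3 with no value at P60 for want of a UMI, and Aqp5 1.77, 0.733, 1.3 and 0.184. At Leiden resolution 1 the AT2-like to AT1-like ratio of Aqp5 was 0.137, and resolution 0.25 moved no ratio beyond its interval. Keeping the cells set aside, an alternative chosen after seeing the data, gave 0.0323 for Aqp1 at P60 to P15. Of fluid transport genes, 3 in place of 4 were higher at P15 than at P3 with genes of ribosomal proteins, haemoglobin and the mitochondrion left out of the total, 1 was lower at P15 than at P3 over all cells, and 1 was higher and 2 were lower at P60 than at P3 with those genes left out of the total. Shares of cells depend on depth: at 1000 and 3000 UMIs the share for Aqp1 at P3 was 64.9 and 91.9%. The causes of these shifts were not tested. With 1 library a group, library, litter, digestion and age or cell type cannot be told apart, and 96 UMIs of Aqp1 and 19 of Aqp4 at P60 limit what can be said of either there.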

Other observations

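Most Aqp3 and Aqp4 UMIs of the P3 library lay outside the AT1-like class. At P3, 27 of the 34 Aqp3 UMIs of the library lay in 63 AT2-like cells, and 71 and 17 of the 153 Aqp4 UMIs lay in 110 ciliated-like and 24 club-like cells, while the 2838 AT1-like cells held 6 Aqp3 and 61 Aqp4 UMIs. These are counts of 1 library and were not tested.

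In the AT1 gate at P3, AT2-like cells held 468 CPM of Aqp1 (428 to 511) with 0.591 Aqp1 UMIs per Aqp5 UMI, against 0.649 in AT1-like cells of that library. Their median depth was 16556 UMIs, against 7292 UMIs in AT1-like cells. The P3 cluster named AT2-like also had 46.5% of the library's median level of AT1 markers. The parts of depth and of AT1 transcripts in these values were not tested. At P15 the AT2-like cells held 45.3 CPM of Aqp1 (20.7 to 86.1) and 0.0452 Aqp1 UMIs per Aqp5 UMI, against 551 CPM and 0.153 in AT1-like cells.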
